A study of Mus musculus with 6 samples.

Results

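The genes described here encode nuclear subunits of respiratory complexes III, IV and V, read in mouse aorta. They are the protein-coding genes whose symbol begins with Uqcr, with Atp5, or with Cox and a digit from 4 to 8, leaving out Cox7a1 and Cox8b. The rule found 42 gene IDs among the 55401 of the count table: 8 of complex III, 16 of complex IV and 18 of complex V. Of these, 39 passed the filter on low counts and were tested. The other 3 had no count in any library: Cox7b2, Cox8c and a second ID carrying the symbol Atp5o (ENSMUSG00000116933). At 0 the limit is 3 counts, 0.0358 to 0.0698 CPM (counts scaled to library size) in 1 library.

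By their labels, both groups of mice lacked apolipoprotein E, the ligand through which remnant lipoproteins are cleared, and both began a high-fat diet at the age of 8 weeks and stayed on it for 24 weeks. One group was ApoE-/- (titled Apo-/-, 3 samples). The other was IL16-/-ApoE-/- (3 samples, called double mutants here), in which the gene of interleukin-16, a chemoattractant ligand of CD4, was deleted too. The comparison asks what deleting this cytokine changes in aortic expression on the diet. Which part of either gene is deleted, the sex of the mice, and whether a sample is 1 animal or a pool are not stated by the labels. Each p-value is thus set against sample-to-sample spread alone, and that spread may be technical.

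Complex III, the cytochrome bc1 complex, passes electrons from ubiquinol to cytochrome c, and complex IV, cytochrome c oxidase, passes them on to oxygen. Both pump protons across the inner mitochondrial membrane, and complex V, the ATP synthase, lets the protons return through a rotating ring and makes ATP. The catalytic centres of complex IV and part of the proton path of complex V are encoded in mitochondrial DNA, and the nuclear genes described here supply most of the remaining subunits. Most of these genes are known to be read widely across cell types, and some isoforms in particular tissues. Brown fat around the aorta and muscle are known for high levels of these genes.

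Library totals were 65730552 to 85568269 counts for ApoE-/- against 42861980 to 47208779 for the double mutants, without overlap. The 42 IDs took 0.829%, 0.289% and 0.235% of all counts in ApoE-/- 1, 2 and 3, and 0.963%, 0.918% and 0.895% in double mutants 1, 2 and 3. Smooth muscle markers, which define the labelled tissue, were present in all libraries. Their 8 genes summed to 4350, 19211 and 27627 CPM (ApoE-/-) versus 8684 to 9845 CPM (double). ApoE-/- 1 stood apart within its group. Its level of Xist, read from the inactive X, was 474 CPM and that of Ddx3y, a Y-linked gene, 0.143 CPM, while the other 5 libraries held 0.497 to 6.21 and 70.1 to 136 CPM. Il16 itself was at 28.3, 28.7 and 15.1 CPM (ApoE-/-) versus 7.93, 12.1 and 12.2 CPM (double), which did not pass the test (log2 fold change -1.16, SE 0.32, adjusted p = 0.163). Apoe, the gene both groups lack by their labels, still had reads in all 6 libraries, with 45.0, 24.9 and 20.9 CPM (ApoE-/-) versus 138, 183 and 137 CPM (double), and was called higher (2.34, SE 0.33, adjusted p = 0.0369).

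All 39 tested genes had a higher fitted level in the double mutants, and 1 passed the test, Atp5k. Its product is subunit e of the ATP synthase, a small membrane subunit at the interface between paired synthases. None fell, and 24 had an unadjusted p under 0.05, all of them higher. Among all 19833 genes tested by edgeR's quasi-likelihood test, 1.14% were called higher, 0.0605% lower, and at an unadjusted p under 0.05 there were 8.87% higher and 7.03% lower. The median log2 fold change was 1.26 over the 39 genes and -0.05 over all tested genes. By complex the medians were 1.48 for complex III, 1.49 for complex IV and 0.85 for complex V, and without ApoE-/- 1 they were 2.50, 2.39 and 1.46. In 26 of the 39 genes every double mutant exceeded every ApoE-/- sample, and in 0 the reverse held. The share of all tested genes with double mutants above without overlap was 14.9%, and below 11.5%.

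The count of calls depended on ApoE-/- 1. Without that library, 37 of the 39 genes rose by edgeR's test, where 13.1% of all tested genes were called higher. Double mutants then lay higher without overlap in 38 of the 39, against 30.6% of all genes. The 2 genes without a call were Cox4i2 and Atp5s, and the median log2 fold change of the 39 was 1.96. Without any other library 0 of the 39 passed, with 20 or 21 at an unadjusted p under 0.05. Of all genes, 0.499% were called higher and 0.0346% lower without ApoE-/- 2, 0.802% and 0.0935% without ApoE-/- 3, and 0% without any 1 double mutant. DESeq2 on all libraries called 20 of them higher (6.23% of all genes), limma-voom 5 (1.95%) and limma-voom with sample weights 36 (9.39%). None of these tools called a member lower, with 2.33%, 0.116% and 7.5% of all genes called lower. Other scaling factors and filters called 1 or 2, with 1.25% of all genes called higher for upper-quartile factors, 1.37% for library totals, 1.53% for a minimum of 1 CPM in 3 libraries and 0.828% without a filter. In bulk tissue a change in the number of cells of a type and a change in RNA per cell cannot be told apart.

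**Figure D1:**
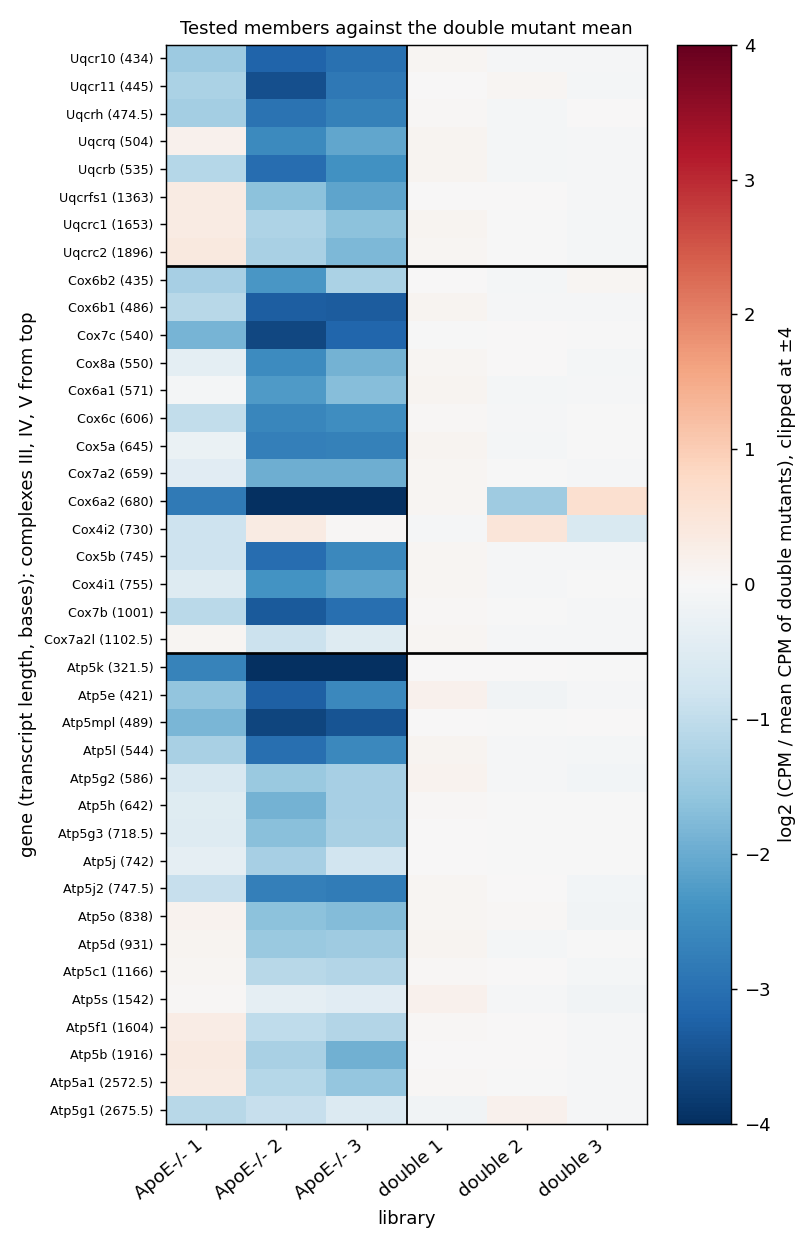
Each row is a tested gene with its transcript length in bases, grouped by complex and sorted by length, and each column a library. Colour gives the log2 ratio of its CPM to the mean CPM of the double mutants. ApoE-/- 2 and 3 are below that mean for nearly all genes, while ApoE-/- 1 is above it for most long transcripts and below it for most short ones.

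Values are given in the order of replicates 1, 2 and 3, first for ApoE-/- and then for the double mutants (double). In complex III, Uqcrc1, Uqcrc2 and Uqcrfs1 did not separate the groups. Uqcrc1, a core protein on the matrix side (ENSMUSG00000025651, GRCm38 chromosome 9, 108936633 to 108949623, plus strand), was at 478, 162 and 121 CPM (ApoE-/-) versus 408, 374 and 357 CPM (double). Its partner Uqcrc2 was at 466, 146 and 102 CPM (ApoE-/-) versus 378, 352 and 338 CPM (double). Uqcrfs1, the Rieske iron-sulfur protein that takes electrons from ubiquinol, was at 300.4, 76.3 and 55.1 CPM (ApoE-/-) versus 242, 238 and 232 CPM (double). In all 3 genes ApoE-/- 1 lay above every double mutant library and ApoE-/- 2 and 3 far below them, so the groups overlapped. Their log2 fold changes were 0.58 (SE 0.52), 0.58 (SE 0.56) and 0.72 (SE 0.63), with adjusted p of 0.594 to 0.629 (n = 3 and 3).

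The small subunits of complex III behaved differently in ApoE-/- 1. Uqcr10, a single-helix membrane subunit, was at 39.6, 11.8 and 13.6 CPM (ApoE-/-) versus 115, 105 and 106 CPM (double), a log2 fold change of 2.32 with an SE of 0.49 and an adjusted p of 0.0982. Uqcr11, the smallest subunit, was at 33.9, 7.14 and 11.4 CPM (ApoE-/-) versus 83.5, 85.9 and 77.3 CPM (double), a log2 fold change of 2.23 with an SE of 0.57 and an adjusted p of 0.139. Uqcrh, the acidic hinge protein beside cytochrome c1, was at 104, 35.1 and 41.7 CPM (ApoE-/-) versus 277, 259 and 275 CPM (double), a log2 fold change of 2.16 with an SE of 0.44 and an adjusted p of 0.0903. In each of these genes, and in Uqcrb, ApoE-/- 1 was the highest of its group and still below every double mutant library. Uqcrq was the exception among the short genes of this complex, with 182, 27.8 and 38.3 CPM against 174, 152 and 157 CPM. It counts as short by the median over its basic transcripts, 504 bases, while its APPRIS principal transcript has 963 bases. Per kilobase of transcript, Uqcrh had the highest mean level of the complex in the double mutants (569 CPM per kb), and Uqcrq in ApoE-/- (164 CPM per kb).

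Cytochrome c1 is read from Cyc1, whose symbol lies outside the rule, and it followed Uqcrc1, Uqcrc2 and Uqcrfs1. Cyc1 was at 323, 84.9 and 74.1 CPM (ApoE-/-) versus 204, 193 and 204 CPM (double), a log2 fold change of 0.32 with an SE of 0.57 and an adjusted p of 0.804. Of 6 complex III assembly factors, 1 rose and 0 fell. That 1 was Uqcc2, an assembly factor of the cytochrome b subunit, at 9.52, 5.08 and 6.92 CPM (ApoE-/-) versus 30.2, 32.2 and 26.5 CPM (double), a log2 fold change of 2.05 with an SE of 0.26 and an adjusted p of 0.0271.

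Complexes III and V had 4 of 8 and 10 of 17 tested genes higher at an unadjusted p under 0.05, with 4 and 9 called by DESeq2. Over all tested genes, 8.87% were higher at that unadjusted p, and DESeq2 called 6.23% higher. In complex IV, 12 of the 14 tested genes were higher in each double mutant than in any ApoE-/- sample (14.9% of all tested genes). None of the 14 passed edgeR's test over all genes, with 10 at an unadjusted p under 0.05 and 7 called by DESeq2. Cox4i1, the largest nuclear subunit and the member with the highest level per kilobase of this complex in both groups (292 and 777 CPM per kb), was at 412, 111 and 137 CPM (ApoE-/-) versus 619, 563 and 579 CPM (double), a log2 fold change of 1.41 with an SE of 0.52 and an adjusted p of 0.273. Cox5a, a matrix-side subunit, was at 150, 26.7 and 27.5 CPM (ApoE-/-) versus 191, 168 and 174 CPM (double), a log2 fold change of 1.39 with an SE of 0.70 and an adjusted p of 0.382. For both genes ApoE-/- 1 lay much nearer to the double mutants than to the other ApoE-/- libraries.

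Cox7c had the second largest change of the complex. This small membrane subunit was at 57.1, 16.6 and 22.9 CPM (ApoE-/-) versus 205, 209 and 206 CPM (double), a log2 fold change of 2.68 with an SE of 0.48 and an adjusted p of 0.0667. Here ApoE-/- 1 was nearer to its own group than to the double mutants. Cox7b, the X-linked member, was at 102, 21.0 and 26.8 CPM (ApoE-/-) versus 222, 216 and 210 CPM (double), a log2 fold change of 2.12 with an SE of 0.61 and an adjusted p of 0.184. Cox7a2l, which is known for joining complexes III and IV into supercomplexes, was at 145, 76.0 and 96.0 CPM against 145, 134 and 133 CPM (0.38, SE 0.26, adjusted p = 0.498), and its groups overlapped. The remaining genes Cox5b, Cox6c, Cox7a2 and Cox8a had log2 fold changes of 1.26 to 1.83, without overlap.

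Ndufa4, now counted as a complex IV subunit although its name places it in complex I, was at 112, 26.1 and 33.5 CPM (ApoE-/-) versus 234, 216 and 219 CPM (double). The isoforms known from brown fat and muscle that the rule leaves out also lay higher in the double mutants without overlap. Cox7a1 was at 19.5, 2.41 and 2.20 CPM (ApoE-/-) versus 83.8 to 92.6 CPM (double), and Cox8b at 43.3, 5.08 and 3.48 CPM against 153 to 174 CPM. None of these 3 passed over all genes (adjusted p = 0.154 to 0.206). Of 24 complex IV assembly factors, 23 were tested, 1 rose and 0 fell. That 1 was Pet100, at 4.02, 2.32 and 3.04 CPM (ApoE-/-) versus 15.9, 16.4 and 15.8 CPM (double), a log2 fold change of 2.36 with an SE of 0.26 and an adjusted p of 0.0208. The copper chaperone Cox17 had the next smallest p of that list (1.57, SE 0.31, adjusted p = 0.0845).

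Complex V held both the most abundant members and the largest change with a call. Atp5b, the catalytic beta subunit, was at 2050, 647 and 418 CPM (ApoE-/-) versus 1623, 1612 and 1554 CPM (double), a log2 fold change of 0.62 with an SE of 0.60 and an adjusted p of 0.628. Per kilobase it was the highest of the complex in both groups (542 and 833 CPM per kb). Atp5a1, the alpha subunit, was at 1368, 486 and 374 CPM (ApoE-/-) versus 1123, 1081 and 1039 CPM (double), a log2 fold change of 0.54 with an SE of 0.51 and an adjusted p of 0.622. ApoE-/- 1 was above every double mutant library in both genes, as it was in Atp5f1, the b subunit of the stator (341, 137 and 124 CPM against 285, 280 and 269 CPM). The gamma subunit Atp5c1, the delta subunit Atp5d and the stator subunit Atp5o overlapped between groups too, with log2 fold changes of 0.61 to 0.80.

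Atp5k (ENSMUSG00000050856, GRCm38 chromosome 5, 108433244 to 108434448, minus strand) rose from 11.6, 3.51 and 3.29 CPM (ApoE-/-) to 74.6, 73.7 and 72.8 CPM (double). Its mean was 12.0-fold higher (log2 fold change 3.59, SE 0.54, adjusted p = 0.0425, n = 3 and 3). Leaving out ApoE-/- 2 ended the call (adjusted p = 0.137), as did leaving out ApoE-/- 3 (0.0710) or double mutant 1, 2 or 3 (0.202, 0.198 and 0.206). It was also lost with the trend on transcript length removed (log2 fold change 2.40, SE 0.40, adjusted p = 0.0683). Over all alternatives the adjusted p ran from 1.63e-09 (DESeq2) to 0.206. The processed pseudogene Atp5k-ps2 took 164 reads in all 6 libraries together against 11358 for Atp5k, and how the counting split reads between such copies is not stated by the labels.

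Atp5mpl, a small proteolipid bound to the synthase, was at 23.5, 6.47 and 7.63 CPM (ApoE-/-) versus 83.4, 81.2 and 83.9 CPM (double), a log2 fold change of 2.73 with an SE of 0.52 and an adjusted p of 0.0785. Its groups were far apart, yet it did not pass. The epsilon subunit Atp5e and subunit g, Atp5l, had log2 fold changes of 2.31 (SE 0.43) and 2.10 (SE 0.46), also without overlap. At the other end, Atp5s, a coupling factor outside the core enzyme, was at 7.72, 5.92 and 5.51 CPM against 8.43, 7.35 and 6.77 CPM (0.24, SE 0.24, adjusted p = 0.650). Of 5 genes for assembly and inhibition of the synthase, 1 rose and 0 fell. That 1 was Atpif1, whose product blocks ATP hydrolysis by the enzyme, at 16.7, 13.1 and 19.1 CPM (ApoE-/-) versus 44.7, 47.1 and 43.0 CPM (double), a log2 fold change of 1.46 with an SE of 0.18 and an adjusted p of 0.0248.

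**Figure D2:**
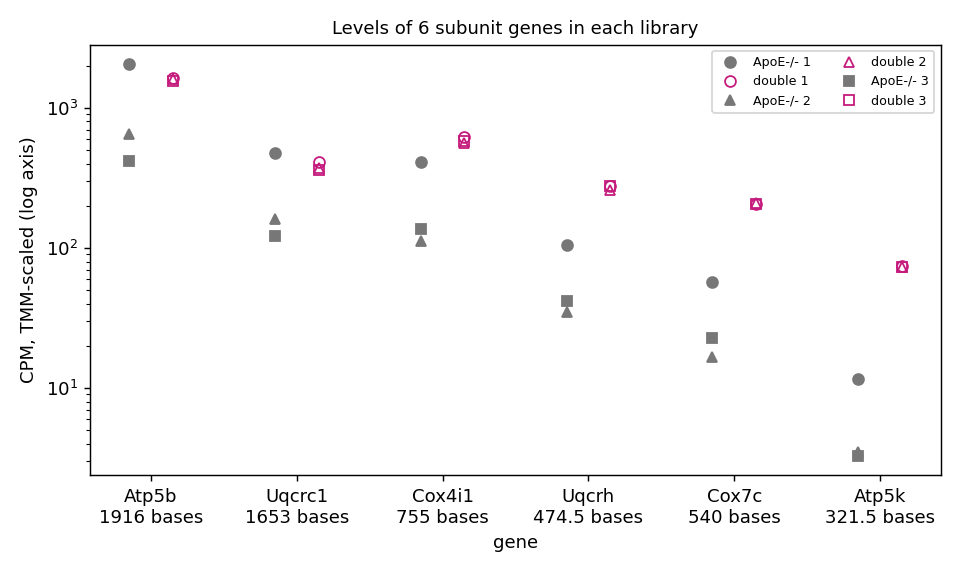
CPM (log axis) of 6 genes in each library, with transcript length under the name. ApoE-/- 1 lies above the double mutants for Atp5b and Uqcrc1, and below all 3 of them for Cox4i1, Uqcrh, Cox7c and Atp5k, while the double mutant libraries nearly coincide.

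The size of the difference followed transcript length. Across the 39 genes, the Spearman correlation between the log2 fold change and transcript length (the median over basic transcripts in GENCODE M21) was -0.76, a description over genes that share the same 6 libraries. Across 19805 tested genes with a length, it was -0.27. With the length of the APPRIS principal transcript, chosen after seeing the data, it was -0.77 over 38 of these genes. The genes are short: their median length was 680 bases against 2347 for all tested genes, and 38.5% of them were under 600 bases against 6.46%.

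Length classes, chosen after seeing the data, show the pattern by library. In the 15 genes under 600 bases the log2 fold change ran from 0.97 to 3.59 with a median of 2.16, and 14 of 15 had no overlap. In the 13 genes of 600 to 1000 bases the median was 1.26, and 10 had no overlap. In the 11 genes of 1000 bases or more it was 0.58, and 2 had no overlap, Cox7b and Atp5g1. Protein-coding genes of the same 3 classes had medians of 1.07, 0.31 and -0.09, over 264, 1013 and 14368 genes, and 55.7%, 30.4% and 10.6% of them lay higher without overlap.

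The ApoE-/- libraries differed in where the classes lay. ApoE-/- 1 was above the double mutant mean in 9 of 11 genes of 1000 bases or more and in 1 of 15 under 600 bases. Its median log2 difference from the double mutants was 0.30 in the long class and -1.29 in the short class. In ApoE-/- 2 the same medians were -1.15 and -3.05, and in ApoE-/- 3 they were -1.53 and -2.58, so both libraries were lower in both classes. Within a library, the median log2 CPM of the short class lay below that of the long class by 2.39, 2.15 and 1.80 in ApoE-/- 1, 2 and 3 and by 0.48, 0.64 and 0.56 in double mutants 1, 2 and 3. Over protein-coding genes this short minus long difference was -1.03, -1.99 and -1.59 (ApoE-/-) versus -0.23, -0.20 and -0.25 (double). The median log2 differences of their short class from the double mutants were -0.69, -1.71 and -1.34 in ApoE-/- 1, 2 and 3. In their long class they were 0.04, 0.08 and 0.05. A lower short class in ApoE-/- was thus not particular to the respiratory genes.

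Ratios of reads between subunits of a complex do not depend on library scaling. Each of the other 36 tested genes was set against 1 subunit of its complex, a comparison added after seeing the data. That subunit was Uqcrc1 (1653 bases), Cox4i1 (755 bases) or Atp5b (1916 bases). Cox4i1 is in the middle length class and was itself higher in the double mutants without overlap (log2 fold change 1.41). The ratio was higher in the double mutants without overlap in 16 genes, lower without overlap in 3, and overlapped in 17. The 3 lower genes, Cox6a1, Cox7a2 and Cox7a2l, were all set against Cox4i1. Under 600 bases it was higher in 11 of 15 genes, from 600 to 1000 bases in 4 of 12, and at 1000 bases or more in 1 of 9. Such ratios were not computed for other genes, so these counts have no background share. In CPM, 55.7%, 30.4% and 10.6% of protein-coding genes of the 3 classes lay higher without overlap.

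The ratios differed in size and in the place of ApoE-/- 1. For every 100 reads of Atp5b there were 0.565, 0.543 and 0.788 reads of Atp5k (ApoE-/-) versus 4.60, 4.57 and 4.69 (double). For every 100 reads of Uqcrc1 there were 38.0, 17.1 and 31.6 reads of Uqcrq (ApoE-/-) versus 42.7, 40.8 and 44.0 (double). For every 100 reads of Cox4i1 there were 15.8, 20.5 and 16.5 reads of Cox7a2 (ApoE-/-) versus 14.9, 15.6 and 14.7 (double). ApoE-/- 1 lay with its own group in the first of these, nearer to the double mutants in the second, and the third ran the other way. These examples were chosen after their values were seen.

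With each library's trend of expression on transcript length removed, the 39 genes stayed higher on balance. Their median log2 fold change was 0.64, with 38 positive values and 22 genes without overlap (13.2% of all genes), and 0 passed edgeR's test, which called 0.722% of all genes higher, with 17 members at an unadjusted p under 0.05. The short class then had a median of 1.29, the middle class 0.68 and the long class 0.59, against 0.21, -0.12 and -0.04 for protein-coding genes of those classes. Whether RNA fragment length, size selection or RNA quality differed between the libraries was not tested.

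**Figure D3:**
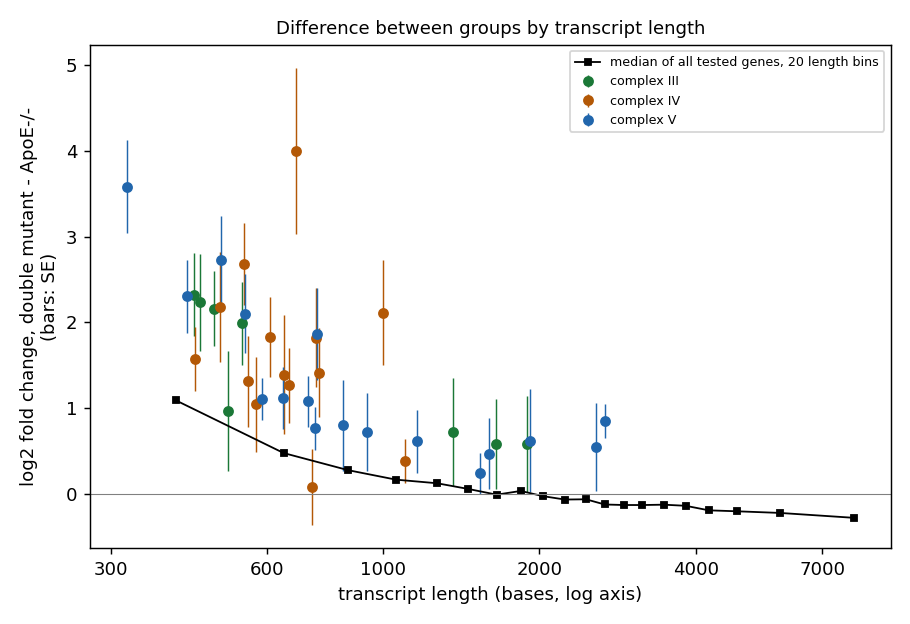
Log2 fold change (double mutant minus ApoE-/-, bars SE) against transcript length on a log axis for the 39 tested genes, coloured by complex. The line joins medians of all tested genes in 20 length bins and falls with length, as the members do. Nearly all members lie above the line.

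Promoters of these genes are known for sites of NRF-1 and of ETS factors such as GABP. RefSeq start sites on GRCm38.p6 were matched for 30 of the 39 tested genes, and the 250 bases upstream were searched on both strands for GCGC followed by any 2 bases and GCGC (NRF-1), for CCGGAAG (ETS) and for AAGATGGCG (YY1). At least 1 of them was found in 11 of the 30 genes (36.7%), against 22.3% of 13234 tested genes and 13.0% of all 27025 genes with a promoter. The ETS letters were in 8 of the 30 (26.7%), against 13.2% of tested genes, and the NRF-1 letters in 5 (16.7%), against 10.1%. By length class, 8 of 12 genes under 600 bases, 2 of 9 in the middle class and 1 of 9 in the long class held at least 1. The short genes without a match were Cox6b2, Cox7c, Cox8a and Uqcr10, and the long gene with a match was Atp5c1. Shares over all tested genes of each length class were not computed, so these small counts have no background beside them. A match describes letters in this window, not a bound site, and no binding was measured.

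A few of these upstream regions are printed to show the letters beside the values, written 5′ to 3′ on the gene's strand with matches in capitals: the called gene Atp5k, the short genes Uqcrh and Cox6b1, and the long, most abundant Atp5b, which holds none of the 3. Upstream here is relative to the RefSeq start, and the printed sequences end at most 20 bases into the GENCODE transcript. By GENCODE's start the match of Uqcrh lies upstream, that of Cox6b1 inside the transcript and that of Atp5k across the start.
Atp5k, chr5:108434429-108434649, minus strand: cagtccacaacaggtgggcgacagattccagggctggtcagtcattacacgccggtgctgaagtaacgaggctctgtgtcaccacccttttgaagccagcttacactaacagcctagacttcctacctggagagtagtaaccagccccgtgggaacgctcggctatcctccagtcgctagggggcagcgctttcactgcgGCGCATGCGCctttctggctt
Uqcrh, chr4:116075071-116075320, minus strand: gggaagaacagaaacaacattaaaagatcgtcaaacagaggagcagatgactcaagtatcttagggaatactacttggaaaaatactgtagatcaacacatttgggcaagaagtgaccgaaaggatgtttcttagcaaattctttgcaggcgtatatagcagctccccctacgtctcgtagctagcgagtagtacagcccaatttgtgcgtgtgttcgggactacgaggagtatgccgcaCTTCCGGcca
Cox6b1, chr7:30626132-30626364, minus strand: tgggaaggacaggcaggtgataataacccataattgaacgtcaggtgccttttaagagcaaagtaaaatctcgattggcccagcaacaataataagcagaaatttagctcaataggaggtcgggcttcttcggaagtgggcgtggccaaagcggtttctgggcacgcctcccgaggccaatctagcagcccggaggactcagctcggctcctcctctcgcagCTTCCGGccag
Atp5b, chr10:128083057-128083292, plus strand: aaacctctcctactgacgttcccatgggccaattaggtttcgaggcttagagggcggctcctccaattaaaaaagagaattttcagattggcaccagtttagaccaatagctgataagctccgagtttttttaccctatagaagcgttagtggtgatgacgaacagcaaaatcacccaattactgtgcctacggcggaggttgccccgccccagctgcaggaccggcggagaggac

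Several subunits exist as isoforms read from separate genes, and their shares within a library do not depend on scaling. For 5 such shares an exact two-sided permutation test was run. Its smallest possible p for 3 against 3 is 0.1, so it could not pass and shows neither a difference nor its absence. Cox4i2, the isoform known from lung and induced by low oxygen, was at 1.67, 3.69 and 3.02 CPM (ApoE-/-) versus 2.83, 4.07 and 1.91 CPM (double), with overlap. Its log2 fold change was 0.07 (SE 0.44, adjusted p = 0.948), and the sign turned without ApoE-/- 1 (-0.19). Its share of the reads of Cox4i1 and Cox4i2 was 0.403%, 3.20% and 2.15% in ApoE-/- 1, 2 and 3 and 0.455%, 0.719% and 0.329% in double mutants 1, 2 and 3. ApoE-/- 2 and 3 were thus the high libraries, and the means of 1.92% ± 1.41 and 0.501% ± 0.199 (SD, n = 3 each) gave an exact permutation p of 0.3 (adjusted 0.5).

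Cox6a2, the isoform of heart and skeletal muscle, was at 1.00, 0.201 and 0.124 CPM (ApoE-/-) versus 7.60, 2.65 and 11.2 CPM (double), a log2 fold change of 4.00 with an SE of 0.97 and an adjusted p of 0.128. This was the largest fold change of the 39 genes, with the double mutants all above. The ubiquitous Cox6a1 was at 212, 47.1 and 68.3 CPM against 242, 213 and 219 CPM. The share of Cox6a2 was 0.471%, 0.425% and 0.182% (ApoE-/-) versus 3.05%, 1.23% and 4.87% (double), without overlap (0.359% ± 0.155 against 3.05% ± 1.82, SD, n = 3 each, exact permutation p = 0.1, adjusted 0.5). The double mutants kept the order of the skeletal muscle markers, whose 8 genes summed to 73.5, 17.7 and 316 CPM (double) against 2.88 to 9.44 CPM for ApoE-/-. The sum of the cardiac markers had another order, at 406, 205 and 333 CPM (double). Among its genes Myh6, Tnnt2, Tnni3, Actn2 and Ryr2 had the order of Cox6a2, and Myl7, Nppa and Myl4 did not. The part of muscle RNA in this gene's difference was not tested.

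Cox6b2, known as a testis isoform, was at 1.97, 0.975 and 2.04 CPM (ApoE-/-) versus 4.98, 4.68 and 5.17 CPM (double), while Cox6b1 was at 137, 29.9 and 29.3 CPM against 316, 287 and 285 CPM. The share of Cox6b2 was 1.42%, 3.16% and 6.51% (ApoE-/-) versus 1.55% to 1.78% (double), so ApoE-/- 1 again lay near the double mutants (exact permutation p = 0.4, adjusted 0.5). The 3 genes for the c subunit of the rotating ring, Atp5g1, Atp5g2 and Atp5g3, are known to encode the same mature protein. Atp5g1 was at 11.2, 12.9 and 16.6 CPM (ApoE-/-) versus 22.3, 27.5 and 23.4 CPM (double). Atp5g2 was at 49.3, 27.4 and 30.7 CPM against 84.1, 74.9 and 72.0 CPM. Atp5g3 was at 84.8, 38.1 and 50.1 CPM against 124, 121 and 120.1 CPM.

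All 3 ring genes lay higher in the double mutants without overlap. Within the ring, Atp5g3 held 58.3%, 48.6% and 51.4% of reads (ApoE-/-) versus 53.8%, 54.2% and 55.7% (double) (exact permutation p = 0.6). The share of Atp5g1 was 7.74%, 16.4% and 17.0% against 9.67%, 12.3% and 10.9% (exact permutation p = 0.4, adjusted 0.5). Atp5g1 was unlike the other long transcripts in that ApoE-/- 1 was the lowest library.

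**Figure D4:**
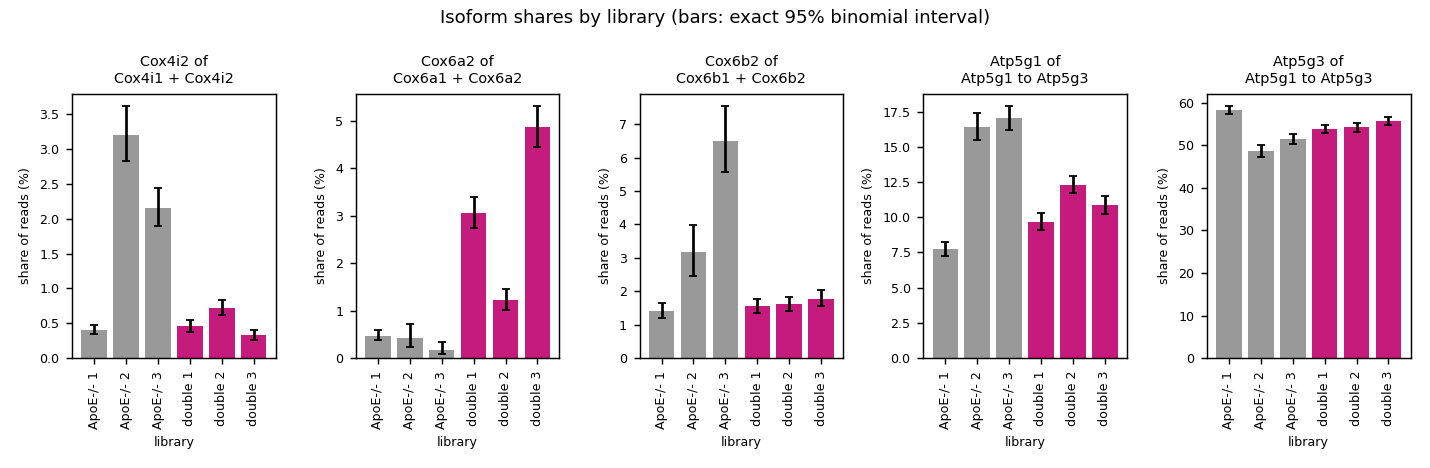
Share of reads (%) of 5 isoform genes in each library, with exact 95% binomial intervals that cover counting error only. The share of Cox6a2 is 1.23% to 4.87% in the double mutants and 0.182% to 0.471% in ApoE-/-, and for the other genes the groups overlap.

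Genes around the 3 complexes gave a background to these values. The 6 subunits of the complexes encoded in mitochondrial DNA had a median log2 fold change of 0.11, with 0 of 6 past the test in either direction (unadjusted p of 0.113 or more). Among them, mt-Co1 was at 62981, 32701 and 53917 CPM (ApoE-/-) versus 37539 to 43985 CPM (double). The 6 went both ways: mt-Co2 was higher in the double mutants without overlap (log2 fold change 0.73, SE 0.40), and mt-Atp8, the shortest at 204 bases, was lower without overlap (-0.57, SE 0.32). For mt-Co1, ApoE-/- 3 lay above every double mutant, unlike in nearly all nuclear subunits. The 4 subunits of complex II had a median of 0.45 and the 11 citrate cycle enzymes one of 0.75, with 0 past edgeR's test and 0 at an unadjusted p under 0.05 in either list. In the former, Sdha was at 1028, 313 and 229 CPM (ApoE-/-) versus 725 to 744 CPM (double).

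Of 14 transcriptional regulators of respiratory genes, 0 passed the test by edgeR, 1 had an unadjusted p under 0.05 (Yy1, lower), and their median was -0.04. The coactivator Ppargc1a was at 35.9, 11.5 and 5.89 CPM (ApoE-/-) versus 24.7, 17.5 and 24.5 CPM (double), and overlapped. Yy1 and Gabpa had the smallest p of that list, with log2 fold changes of -0.38 (SE 0.15, adjusted p = 0.304) and -0.31 (SE 0.15, adjusted p = 0.359). Of 7 genes for cytochrome c, nucleotide and phosphate carriers and outer membrane channels, 0 passed edgeR's test or had an unadjusted p under 0.05, with a median of 0.38.

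The sums of fat cell markers moved with these values between libraries, while single markers did not all do so. The 10 white adipocyte markers summed to 6594, 1227 and 1271 CPM (ApoE-/-) versus 4442 to 4783 CPM (double). Among them edgeR's test called Lep higher (adjusted p = 0.0168), at 0.871, 1.09 and 2.05 CPM against 18.7 to 22.0 CPM. Plin4 was at 294, 352 and 368 CPM against 362 to 401 CPM. In Lep and Plin4 ApoE-/- 1 was the lowest library, and in the rest of this list it was the highest of its group. The 8 brown adipocyte markers, which include Cox7a1 and Cox8b, summed to 2452, 673 and 214 CPM (ApoE-/-) versus 2271 to 2636 CPM (double). Ucp1, one of them, had 1592, 385 and 75.8 CPM (ApoE-/-) versus 1412 to 1777 CPM (double). The fitted level was higher in the double mutants for 6 of the 8 brown markers. Elovl3 and Dio2 were lower there (log2 fold changes -1.12, SE 1.29, and -0.59, SE 0.27), with overlap. Dio2 held 127, 165 and 86.9 CPM in ApoE-/- 1, 2 and 3, so ApoE-/- 2 was its highest library. The members of 1000 bases or more summed to 5515, 1879 and 1442 CPM (ApoE-/-) versus 4382 to 4699 CPM (double). Their order within ApoE-/- was that of the brown adipocyte sum. It was also that of the macrophage, endothelial, complex II and citrate cycle sums. The summed members under 600 bases were at 1212, 309 and 411 CPM (ApoE-/-) versus 2238 to 2437 CPM (double). ApoE-/- 1 lay above all double mutants in the white adipocyte sum and in the long members, within their range in the brown adipocyte sum, and below all of them in the short members.

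Kidney and muscle markers differed between the groups as well. The 8 kidney proximal tubule markers summed to 464 to 517 CPM in the double mutants against 1.30 to 2.24 CPM for ApoE-/-, where Kap, Miox, Slc22a6, Slc5a2 and Acsm2 had no count. These genes, Slc34a1 and Lrp2 rose, 7 of the 8. The 8 cardiac markers summed to 205 to 406 CPM in the double mutants against 85.4 to 126 CPM for ApoE-/-, and 1 of the 8 rose by edgeR's test, Tnnt2 (adjusted p = 0.0420). Without overlap 7 of the 8 lay higher, and 7 were higher at an unadjusted p under 0.05. Ryr2 ran the other way, at 11.5, 64.3 and 78.3 CPM (ApoE-/-) versus 24.7 to 27.3 CPM (double) (log2 fold change -0.96, SE 0.62). None of the 8 skeletal muscle markers passed edgeR's test, and all 8 lay higher without overlap with an unadjusted p under 0.05. Macrophage markers summed to 5376, 2616 and 453 CPM (ApoE-/-) versus 4837 to 6856 CPM (double). Endothelial markers summed to 1150, 722 and 667 CPM (ApoE-/-) versus 1270 to 1307 CPM (double), with 6 of 8 higher without overlap and 0 past edgeR's test (2 at an unadjusted p under 0.05). Fibroblast markers summed to 7509, 8877 and 6229 CPM (ApoE-/-) versus 7221 to 8492 CPM (double), with a median log2 fold change of -0.10. The part of fat, kidney, muscle, macrophage or endothelial RNA in the differences of the respiratory genes was not tested. ApoE-/- 1 differed from ApoE-/- 2 and 3 in the sex-linked genes and in the fat, macrophage and smooth muscle sums, and these differences cannot be told apart from one another. ApoE-/- 2 and 3 also differed from each other, at 2616 and 453 CPM in the macrophage sum and 673 and 214 CPM in the brown adipocyte sum.

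**Figure D5:**
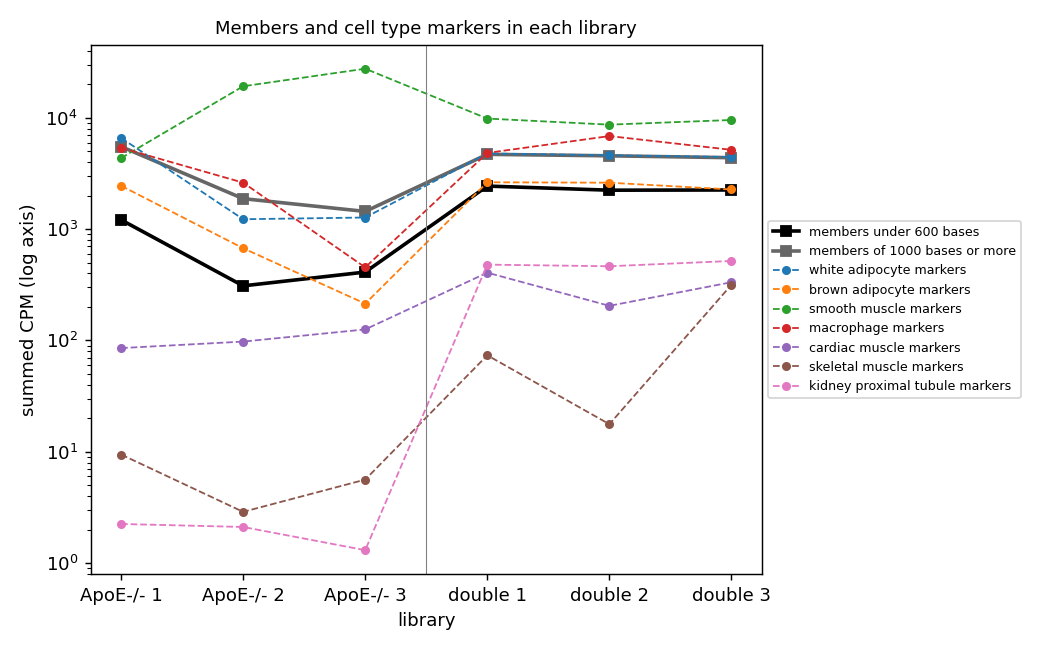
Summed CPM (log axis) in each library for members under 600 bases, members of 1000 bases or more, and 7 lists of cell type markers. The long members fall from 5515 CPM in ApoE-/- 1 to 1442 CPM in ApoE-/- 3, as the brown adipocyte and macrophage markers do. Kidney markers are at 464 to 517 CPM in the double mutants and at most 2.24 CPM in ApoE-/-, and smooth muscle markers run the opposite way within ApoE-/-.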

How the data were processed

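RNA sequencing counts from 6 mouse aorta samples were used, grouped by sample title. The authors deposited raw read counts per gene, judged from whole numbers with unequal totals. The tools listed, per the submitters' processing notes, are cutadapt, HISAT2 and StringTie. No source used here states the build, annotation, counter or strand setting, so reads of overlapping genes or near-identical copies may be split. Libraries were strand-marked and made from polyadenylated RNA, per the labels' protocols.

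Of 55401 Ensembl IDs, 55141 matched a symbol in GENCODE M21 (GRCm38), and 260 did not. Those without a symbol held at most 0.0114% of a library's counts and were kept. Genes passing edgeR's filterByExpr (minimum count 10, minimum total 15), 19833 in all, were scaled by TMM and compared with edgeR's quasi-likelihood test (robust, no covariate), with Benjamini-Hochberg adjustment over all of them and a threshold of 0.05. An SE is the log2 fold change divided by the square root of the F statistic. Log2 CPM used a prior count of 2. The length trend was a lowess fit (span 0.3) of each library's deviation on log2 transcript length, entered as an offset. Isoform shares were compared by exact permutation.

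Every member may be named. Values per library are given for called members, the 2 largest and 2 smallest fold changes and the highest level per kilobase in each complex. They are also given for Uqcrc1, Uqcrc2, Uqcrfs1, Cox4i1, Cox5a, Atp5a1 and Atp5b, and for isoform sets. In other lists, called genes are named, and in some lists also those with the smallest p. Single genes added beside these were chosen after their values were seen. The members and lists were chosen with earlier results of these data known. Tests were checked on simulated data with the same dispersion for every gene and no library standing apart. That check does not cover a library such as ApoE-/- 1. Alternatives were other scaling factors, filters, tools, a replicate block, the length trend removed and each library left out. Versions were edgeR 4.0.16, DESeq2 1.42.0 and limma 3.58.1 in R 4.3.3, with scipy 1.17.1 and matplotlib 3.10.9 in Python 3.11.15.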

Additional observations from a re-analysis of the deposited data

How the results depend on the processing

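Under RLE factors, upper-quartile factors, library totals and a filter of 1 CPM in 3 libraries, Atp5k remained the 1 member called higher. With no filter 2 members were called, with DESeq2 20, with limma-voom 5, with limma-voom and sample weights 36, and with the length trend removed 0. Leaving out 1 library gave 0 to 37, with the 37 without ApoE-/- 1 and 0 without any of the other 5. The titles number the samples 1 to 3 in each group, but deviations of same-numbered samples correlated at -0.04, -0.03 and -0.01, so the numbers were not taken to pair the samples. With the replicate block 0 members were called, as were 0 of all tested genes.

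The median log2 fold change of the members was 2.02 with sample weights and 0.95 to 1.96 when 1 library was left out. For complex III it was 2.46 with sample weights and 1.10 to 2.50 with 1 library left out, for complex IV 2.30 and 1.20 to 2.39, and for complex V 1.37 and 0.77 to 1.46. Members without overlap numbered 26 to 38 with 1 library left out, the 38 being without ApoE-/- 1. The log2 fold change of Cox4i2 turned to -0.23 with sample weights, -0.56 with the length trend removed, and -0.19 and -0.23 without ApoE-/- 1 and double mutant 2, in a range of -0.23 to 0.33 with 1 library left out. The difference in the share of Atp5g3 turned to -0.335 percentage points without ApoE-/- 2, in a range of -0.335 to 4.52 points. The cause of these shifts was not tested. Depth limits members with few reads, such as Cox6a2 with 84, 14 and 10 reads in ApoE-/- 1, 2 and 3.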
